A study of Hydrangea macrophylla with 27 samples.

Results

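The 77 transcript clusters of Hydrangea macrophylla 'Wudu' described here are those whose best Swiss-Prot match is named a WRKY transcription factor and whose expected counts sum to at least 100 over all libraries. They were taken from 142016 assembled clusters. Of 85 clusters with such a name, 8 fell below that sum. The members just inside it were matches to WRKY23 with a total of 125.7 and to WRKY56 with 126 and 126.9, and those just outside were matches to WRKY21 with 93.6, WRKY72A with 71 and WRKY30 with 65. Whole stems of this ornamental shrub, of a single wild-type cultivar grown from micro-cuttings in a chamber with 16 h of light a day, were sequenced as poly(A) RNA to follow their response to mechanical stimulation. A plastic curtain bent the treated plants 12 times in the hour after 9 a.m. of 1 day, to an angle of 30° for some 30 s. The 9 groups were unbent stems harvested 15 min ahead of the treatment, and stems with and without bending harvested 1, 3, 24 and 72 h later, with 3 libraries each, or 27 in all. The sources do not say whether these hours count from the first or the last bending, nor whether a library holds 1 plant or several.

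WRKY proteins are a plant family of DNA-binding regulators that recognise the W-box, a short element in the promoters of many defence and stress genes. Many family members are themselves switched on within minutes to hours by wounding, touch, pathogens or hormones. In Arabidopsis some are phosphorylated by mitogen-activated protein (MAP) kinases, some bind calmodulin, and some pair with small VQ proteins. The family is divided by the number and type of its WRKY domains into groups I, IIa to IIe and III. The roles given below are those of the best match in its own species and are background, not results.

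The names were checked against the other annotations of the same clusters. A WRKY domain was listed by Pfam for 65 of the 77 clusters and not for 12, of which 8 still carried a WRKY name in the NCBI protein database. No WRKY domain was listed for any of the 4 matches to WRKY19, an Arabidopsis protein that joins a WRKY domain to immune receptor and kinase parts, so those 4 clusters are WRKY genes by database name only. The same holds for 1 of 2 matches to WRKY41, Cluster-9242.57592, and for 1 of 4 matches to WRKY53, Cluster-9242.57591. Of the 77 best matches, 74 are from Arabidopsis thaliana and 3 from cereals: WRKY24 and WRKY51 from rice and WRKY46, also called SUSIBA2, from barley. The 77 clusters carry 39 names, and 61 of them share a name with another cluster. Clusters of 1 name may be paralogs or pieces of 1 transcript and may share reads, so each cluster identifier is given where a name recurs. By the numbers of the Arabidopsis matches, 18 clusters fall in group I, 4 in IIa, 5 in IIb, 21 in IIc, 11 in IId, 8 in IIe and 7 in III.

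Total expected counts lay between 14.4 M and 23.1 M per library, and 52918 clusters passed the filter on low counts, among them 74 of the 77 WRKY clusters. The other 3, matches to WRKY18, WRKY56 and WRKY23 with totals of 132, 126 and 125.7, were not tested. Transcripts of all 4 stem tissues searched for, xylem, phloem, epidermis and meristem, were present, and no marker cluster was at 0 in all libraries. Ribosomal RNA took 2.68% to 8.44% of the counts, with the highest shares in replicate 2 of the stems before bending, of bent stems at 1 h and of bent stems at 3 h. Clusters that match thrips, plant-feeding insects, had their top shares in 2 libraries, replicate 3 before bending (0.0534% of the counts) and replicate 2 of bent stems at 24 h (0.0769%).

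WRKY transcripts were of low to moderate abundance and spanned a wide range of levels. On the FPKM scale, which divides by length and allows levels to be set beside each other, the mean over 27 libraries ran from 0.243 to 42.6 with a median of 4.76. A mean of at least 10 FPKM was reached by 19 clusters, 40 lay from 1 to 10 and 18 below 1. The highest was the WRKY19 match Cluster-9242.51624, with 30.0 FPKM in the lowest library, 36.1 in the median and 68.5 in the highest. WRKY15, the only match to that name, came next with 18.2, 24.3 and 83.7 FPKM in the same order. Below them stood a further WRKY19 match, Cluster-9242.54708, at a mean of 31.96 FPKM, WRKY7 (Cluster-9242.33165) at 30.1, the barley WRKY46 match at 29.1 and WRKY32 at 25.3. Neighbours in this order overlap in their ranges over the libraries, while the whole range of WRKY32 lay below that of the first. The barley match, whose namesake takes part in sugar signalling, and WRKY32 varied least of the 6, from 25.1 to 36.1 FPKM and from 20.02 to 29.6 FPKM over all libraries.

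**Figure D1:**
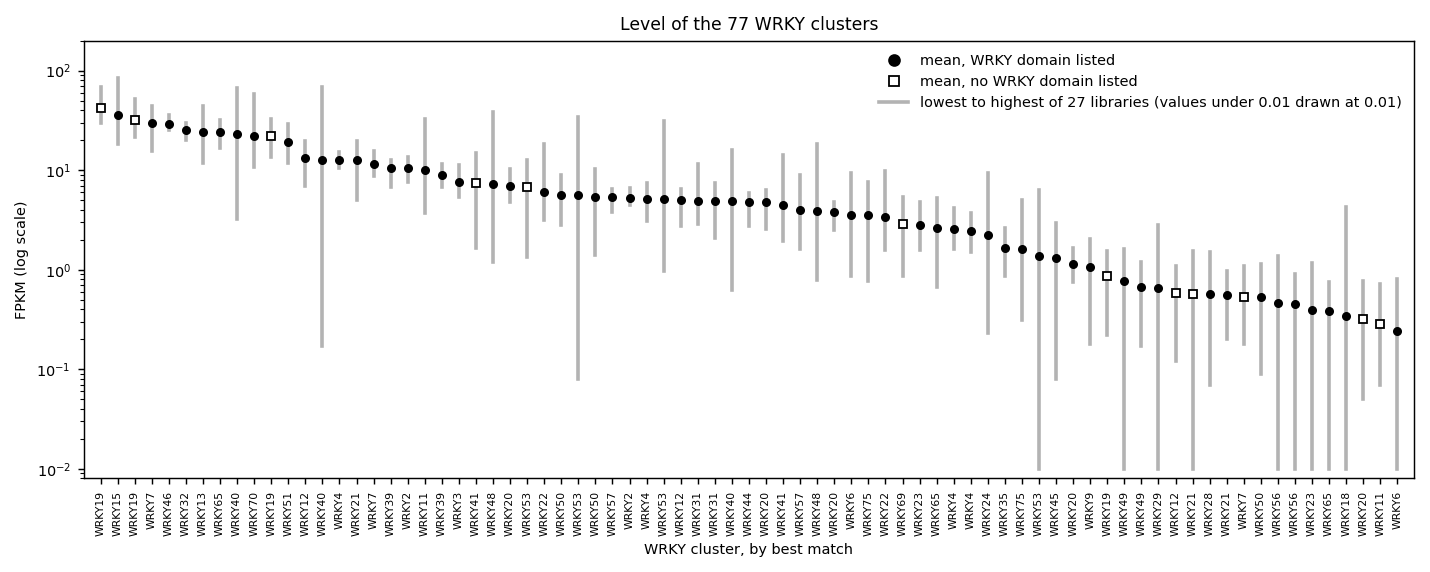
Mean FPKM (log axis) of the 77 WRKY clusters, ordered by level and labelled by best match, with bars from the lowest to the highest of 27 libraries. Means run from 42.6 for a WRKY19 match to 0.243, open squares mark the 12 clusters with no WRKY domain listed, and the bars of WRKY40 and WRKY53 matches are among the longest.

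Bending changed 14 of the 74 tested WRKY clusters at 1 or 3 h, in both directions, and no call was made at 24 or 72 h. At 1 h, 6 clusters passed edgeR's quasi-likelihood test at an adjusted p under 0.05, 2 higher and 4 lower in bent stems, or 8.11% of those tested beside 1.93% of all clusters tested (1.11% higher, 0.814% lower). At 3 h, 9 passed, 5 higher and 4 lower, or 12.2% beside 5.08% (3.05% higher, 2.03% lower). Of the 62 tested clusters with a listed WRKY domain, 5 were called at 1 h and 6 at 3 h. The bent and unbent libraries of all 15 calls did not overlap. How often this holds over all clusters was not counted, so it adds no support to the calls. Below, a value in parentheses after a fold change or difference is edgeR's adjusted p unless it is said to be something else. The 61 WRKY clusters with a mean of at least 1 CPM (counts scaled to a common library size) include all of these calls, 6 at 1 h and 9 at 3 h. Of all clusters with such a mean, 3.01% were called at 1 h and 7.85% at 3 h. The median log2 fold change of the WRKY clusters was 0.13 at 1 h, with 44 of 74 above 0, and 0.01 at 3 h, with 38 above 0, while that of all clusters was 0.00 and 0.01. A fold of at least 2 was reached by 1 of the calls at 1 h and 4 at 3 h. WRKY15 passed at both times, 5 clusters at 1 h alone and 8 at 3 h alone.

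Single libraries weigh on these counts. At 1 h, leaving out replicate 1 of the bent stems gave 1 call in place of 6, and leaving out replicate 1 or 2 of the unbent stems gave 3 or 2. At 3 h, 5 were called when replicate 1 of the bent stems was left out. Summed markers of epidermis were higher in bent stems, at 623 to 730 CPM against 458 to 547 at 1 h and 483 to 632 against 430 to 457 at 3 h, and 2 of 19 tested members rose at each time, with 1 lower at 3 h. The median log2 fold change of the 19 was 0.06 at 1 h and -0.04 at 3 h. Of 32 xylem, 13 phloem and 28 meristem markers tested, none was called at 1 h, and 2 xylem markers rose, 1 xylem marker fell and 1 meristem marker rose at 3 h. The xylem medians at 1 and 3 h were -0.22 and -0.27, those of phloem -0.04 and -0.02, and those of meristem -0.04 and -0.05. Clusters that match Hydrangea ringspot virus took 2.32% to 6.88% of the counts over all libraries. At 3 h bent stems had a share of 2.32% to 3.34% and unbent ones 3.74% to 5.82%, without overlap. At 1 h the shares were 2.64% to 3.36% and 2.35% to 4.85%, which overlap. None of the 30 virus clusters was called by edgeR, and their median log2 fold change was -0.76 at 3 h and 0.05 at 1 h. Ribosomal RNA shares also lay apart at 1 h, with 3.31% to 6.96% after bending and 2.68% to 3.21% without. Without the 3 libraries richest in it, 6 WRKY clusters were called at 1 h and 9 at 3 h, 5 and 9 of them shared with the calls above. The part of the tissues and the virus in the WRKY results was not tested. In whole stems, a change in the number of cells of a type and a change in RNA per cell cannot be told apart.

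**Figure D2:**
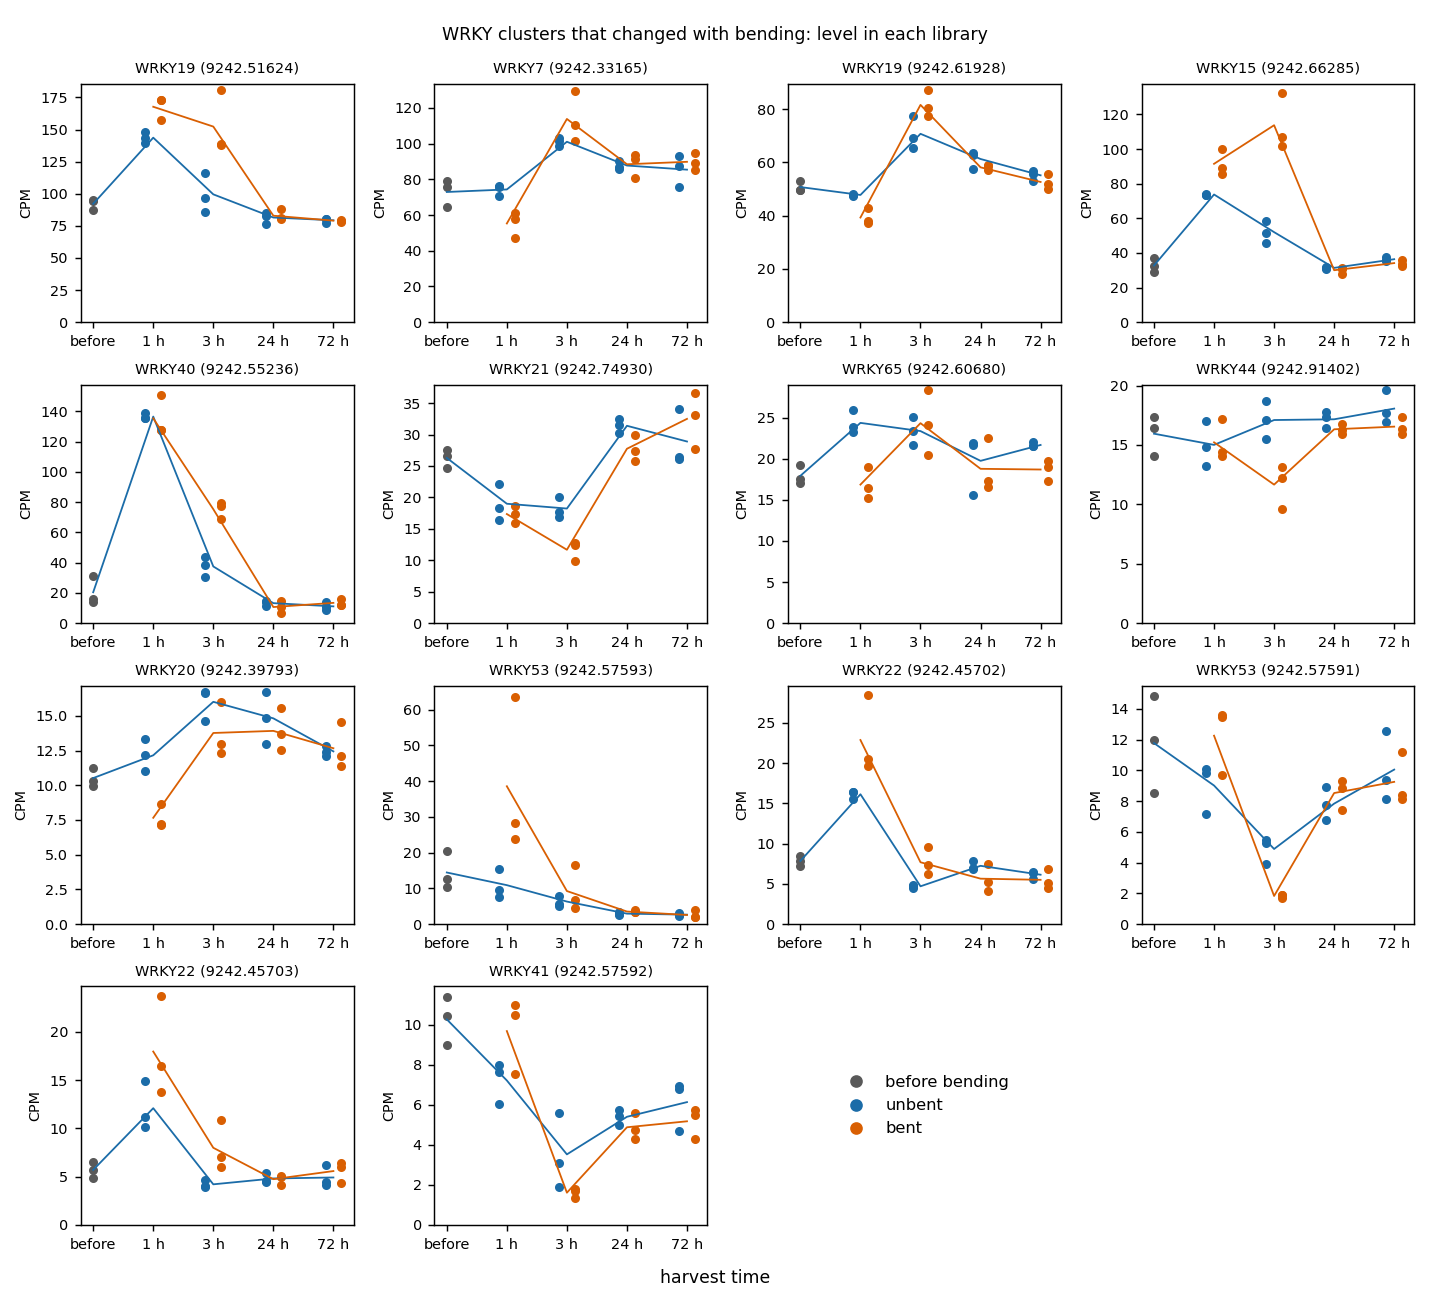
Level in CPM in each of 27 libraries for the 14 WRKY clusters that changed with bending at 1 or 3 h, by harvest time, with lines through group means. Bent and unbent libraries lie apart at 1 or 3 h and are mostly mixed at 24 and 72 h. For WRKY15, bent stems at 3 h held 102 to 133 CPM and unbent stems 45.8 to 58.5.

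The group IId matches, whose Arabidopsis counterparts bind calmodulin, gave 3 of the 14. WRKY15 (Cluster-9242.66285), which in Arabidopsis acts on leaf growth and oxidative stress responses, stood at 28.9, 32.5 and 36.8 CPM before bending. It reached 88.9, 85.3 and 100.3 CPM in bent and 73.2, 73.7 and 74.3 CPM in unbent stems at 1 h, and 133, 102 and 107 CPM against 58.5, 45.8 and 51.7 CPM at 3 h. Both harvests separated the treatments completely, by a narrow margin at 1 h and a wide one at 3 h, when bent libraries held more than at 1 h and unbent ones less. The log2 fold change was 0.31 ± 0.087 (SE) at 1 h with an adjusted p of 0.0456, and 1.13 ± 0.089 at 3 h with 2.27e-12, both from edgeR. The call at 1 h was lost without any 1 of 5 of the 6 libraries (all but replicate 2 of the bent stems). It was also lost without a filter on low counts and with log2(FPKM + 0.1) and log2(FPKM + 1). Its values ran from 0.24 to 0.37 over the alternatives. The call at 3 h was not lost under any of 17. By 24 h the bent stems held 27.8, 30.9 and 31.3 CPM and the unbent stems 30.9, 31.1 and 32 CPM, a difference of -0.06 ± 0.092 on the log2 scale.

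WRKY7 (Cluster-9242.33165), known in Arabidopsis as a calmodulin-binding repressor of defence, moved the other way at 1 h. Its level was 47, 57.8 and 61 CPM in bent and 76.4, 70.8 and 75.8 CPM in unbent stems, with no overlap and a log2 fold change of -0.43 ± 0.089 (edgeR adjusted p 0.00379). At 3 h it was 129.5, 110.3 and 102 CPM against 101, 103 and 98.7 CPM, where the highest unbent library passed the lowest bent one and the test gave 0.332. Without replicate 1 of the bent stems at 1 h its difference was -0.32 and was not called. WRKY21 (Cluster-9242.74930) showed a fall at 3 h, to 9.82, 12.7 and 12.4 CPM in bent against 16.9, 17.6 and 20.1 CPM in unbent stems. That is -0.64 ± 0.12 on the log2 scale (edgeR adjusted p 0.000362), a call held under all 17 alternatives, with values of -0.72 to -0.53. At 1 h its groups overlapped, at 17.4, 18.6 and 16 CPM and 16.5, 22.2 and 18.3 CPM.

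WRKY19 matches, the abundant clusters that are WRKY by name only, gave 2 calls of unlike course. Cluster-9242.51624 stood at 181, 138 and 138 CPM in bent and 116, 96.7 and 85.9 CPM in unbent stems at 3 h. All bent libraries lay above all unbent ones, at a log2 fold change of 0.61 ± 0.083 (edgeR adjusted p 1.86e-06) that was called under all 17 alternatives. At 1 h the same cluster was 173, 158 and 173 CPM against 143, 139.7 and 148 CPM, without overlap but not called (0.21). Cluster-9242.61928 was lower in bent stems at 1 h, with 37.8, 37.2 and 42.8 CPM against 47.8, 47.4 and 48.1 CPM. Its log2 difference of -0.28 ± 0.076 (edgeR adjusted p 0.0342) is the smallest of the calls and the least stable, lost under 10 of 17 alternatives, among them each of 5 single libraries (all but replicate 3 of the bent stems). Over the alternatives it ran from -0.35 to -0.23. The third abundant match, Cluster-9242.54708, had 43.6, 41.5 and 42.9 CPM in bent and 54.4, 45.8 and 40.5 CPM in unbent stems at 3 h, which overlap.

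WRKY22, which in Arabidopsis acts below a MAP kinase cascade in the response to bacterial flagellin, is matched by a pair of clusters with consecutive identifiers that rose together at 3 h. Cluster-9242.45702 held 9.52, 7.31 and 6.19 CPM in bent and 4.82, 4.74 and 4.5 CPM in unbent stems, and Cluster-9242.45703 held 10.9, 7.09 and 6.01 CPM and 4.71, 3.88 and 4.04 CPM. In each, all bent libraries lay above all unbent ones, and replicate 1 was the highest of the bent group. The log2 fold changes were 0.71 ± 0.18 and 0.92 ± 0.21, with edgeR adjusted p of 0.0117 and 0.00482. Without replicate 1 of the bent stems neither cluster was called, at values of 0.53 and 0.64. The former was also lost with log2(FPKM + 0.1), with log2(FPKM + 1) and without replicate 3 of the unbent stems (0.68). Both had higher levels at 1 h, 28.4, 19.6 and 20.5 CPM in bent and 15.6, 16.4 and 16.4 CPM in unbent stems for the former, where the difference of 0.50 ± 0.16 was not called (0.109). WRKY65 (Cluster-9242.60680), also of group IIe, was lower in bent stems at 1 h, with 15.2, 19 and 16.4 CPM against 23.3, 26 and 23.8 CPM. Its log2 fold change of -0.53 ± 0.12 (edgeR adjusted p 0.00919) was lost without replicate 1 of the bent stems (-0.46) and without replicate 2 of the unbent stems (-0.48).

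WRKY40, a rapidly induced repressor in Arabidopsis that tempers defence and abscisic acid responses, was higher in bent stems at 3 h. Cluster-9242.55236 stood near its peak in both groups at 1 h, with 151, 128 and 128 CPM in bent and 139, 136 and 136 CPM in unbent stems. At 3 h it had dropped to 77.4, 69.1 and 79.5 CPM in bent and to 43.8, 38.1 and 30.4 CPM in unbent stems, which no longer overlapped. The log2 difference at 3 h was 1.01 ± 0.25 (edgeR adjusted p 0.0208) and that at 1 h -0.01 ± 0.24, but the change between these effects was 1.02 ± 0.34 with an adjusted p of 0.268, which is not called. The call at 3 h was lost without replicate 1 or 3 of the bent stems or replicate 2 or 3 of the unbent stems. It was also lost without a filter on low counts, with log2 values of 0.88 to 1.14 over all alternatives. The further match Cluster-9242.48947 had 9.47, 3.99 and 7.31 CPM against 4.14, 1.58 and 1.86 CPM at 3 h, where the groups overlap only through replicate 1 of the unbent stems, and its difference of 1.44 ± 0.47 was not called (0.0963).

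Group III matches were split by time and by cluster. All bending calls of this group fell on consecutive identifiers, Cluster-9242.57591, Cluster-9242.57592 and Cluster-9242.57593. Whether these are separate genes or pieces of 1 transcript was not tested. WRKY53 is a regulator of leaf senescence in Arabidopsis, and WRKY41 is its close relative, known for a part in seed dormancy. WRKY53 Cluster-9242.57593 rose at 1 h to 63.6, 28.2 and 23.8 CPM in bent against 7.62, 9.64 and 15.4 CPM in unbent stems. All bent libraries lay above, but replicate 1 was more than 2 times as high as the others of its group. The log2 fold change was 1.81 ± 0.42 (edgeR adjusted p 0.0293), the largest of the 15 calls. Without replicate 1 of the bent stems it was 1.25 and was not called. It was also lost without replicate 1 or 2 of the unbent stems, without a filter on low counts and with only the groups compared. Values ran from 1.25 to 2.15 over its alternatives.

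The neighbouring identifiers Cluster-9242.57591 (WRKY53) and Cluster-9242.57592 (WRKY41), both with no WRKY domain listed, fell in bent stems at 3 h. The former held 1.7, 1.88 and 1.89 CPM in bent and 3.91, 5.46 and 5.28 CPM in unbent stems, and the latter 1.7, 1.77 and 1.36 CPM and 1.87, 5.59 and 3.1 CPM. The first gap is wide, while the lowest unbent library of the second lies just above the highest bent one. The log2 fold changes were -1.41 ± 0.23 and -1.10 ± 0.27, with edgeR adjusted p of 4.34e-05 and 0.00665. WRKY53 Cluster-9242.57591 kept its call under all 17 alternatives, whereas WRKY41 lost it under 4. These were limma-voom, only the groups compared, log2(FPKM + 1), and the fit without replicate 2 of the unbent stems, at -0.63. At 1 h both leaned the other way, with log2 differences of 0.44 ± 0.19 and 0.42 ± 0.22 that were not called. The other WRKY53 matches, named here after their values were seen, were not called: Cluster-9242.87091 held 56.5, 37.2 and 29.7 CPM in bent and 20.5, 23.7 and 25 CPM in unbent stems at 1 h, and Cluster-33744.1 held 7.61, 4.48 and 3.8 CPM and 1.45, 3.1 and 2.77 CPM. Bent libraries lay above unbent ones in both, and edgeR's adjusted p was 0.443 and 0.604.

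**Figure D3:**
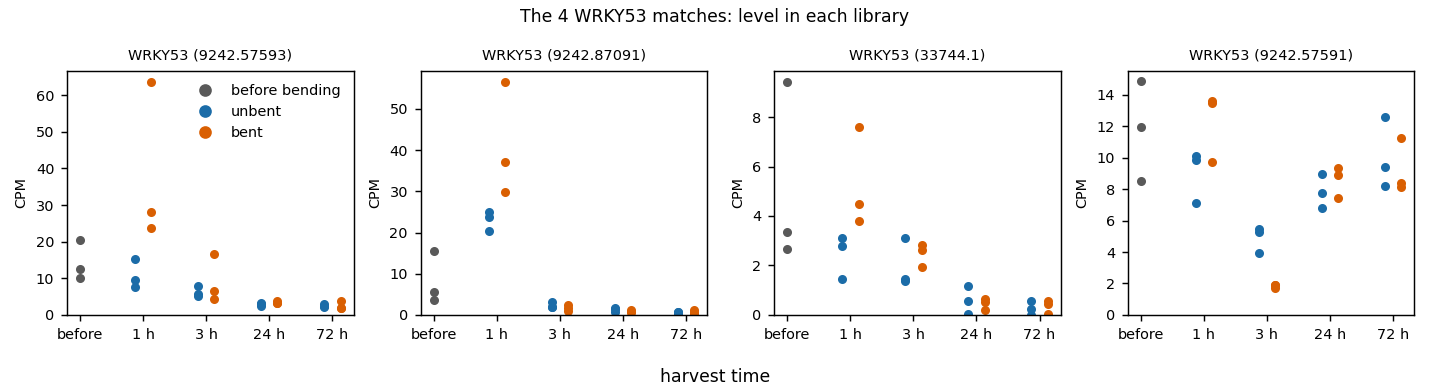
Level in CPM in each library of the 4 WRKY53 matches, by harvest time. Cluster-9242.57593 reached 23.8 to 63.6 CPM in bent stems at 1 h against 7.62 to 15.4 in unbent stems, while Cluster-9242.57591 was lowest in bent stems at 3 h, at 1.70 to 1.89 CPM against 3.91 to 5.46.

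In group I, WRKY20 and WRKY44 each gave a fall. WRKY20 (Cluster-9242.39793) had 7.23, 7.12 and 8.63 CPM in bent and 11, 12.2 and 13.3 CPM in unbent stems at 1 h, with no overlap. Its log2 fold change of -0.67 ± 0.14 carried the smallest adjusted p of the calls at 1 h (0.00303, edgeR) and was called under all 17 alternatives. Its neighbour by identifier, the WRKY20 match Cluster-9242.39792, differed by -0.37 ± 0.11 without a call (0.0849). WRKY44, called TTG2 in Arabidopsis, where it acts in leaf hairs and the seed coat, fell at 3 h to 9.64, 13.1 and 12.2 CPM in bent against 17.1, 18.7 and 15.5 CPM in unbent stems. The gap of -0.55 ± 0.12 (edgeR adjusted p 0.00292) was not called without replicate 1 of the bent stems, at -0.43. Its 1 h groups overlapped, at 14.1, 14.4 and 17.2 CPM and 14.8, 13.2 and 17 CPM.

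**Figure D4:**
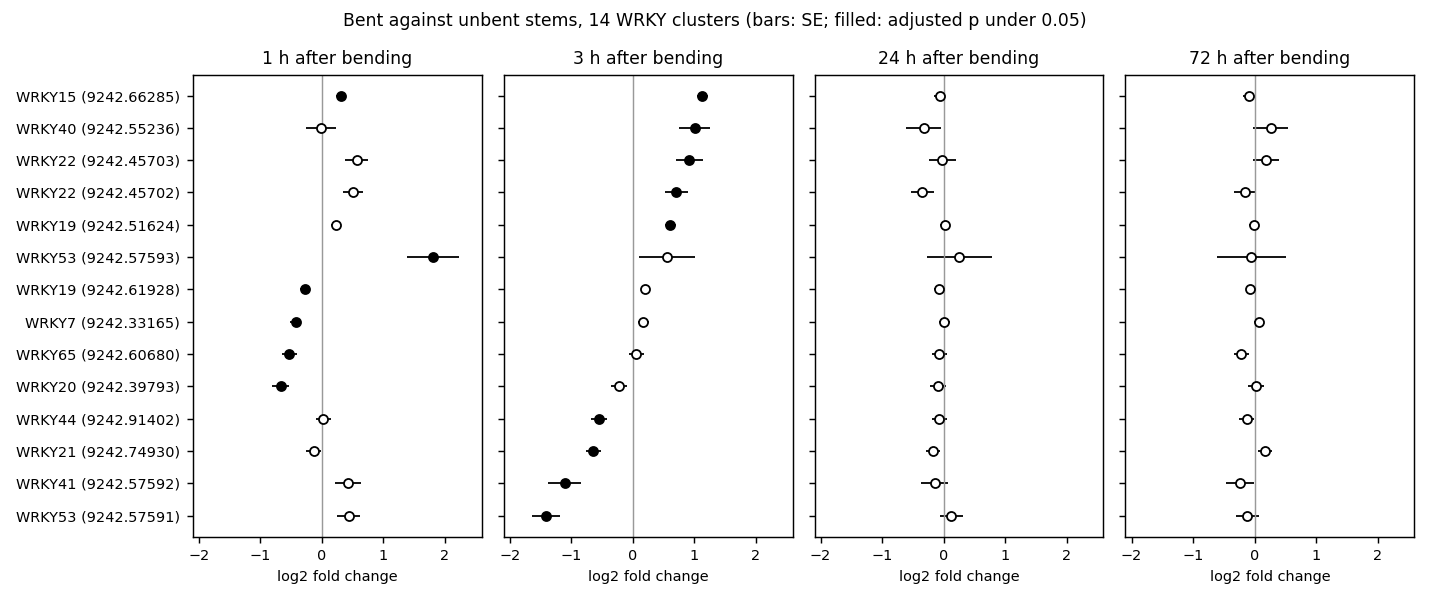
Log2 fold change of bent against unbent stems (x axis, with SE) at 4 harvests for the 14 WRKY clusters called at 1 or 3 h, ordered by the value at 3 h. Filled points have an adjusted p under 0.05, from -1.41 to 1.81, and values at 24 and 72 h lie between -0.34 and 0.26.

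The bending effect differed between 1 and 3 h for 5 WRKY clusters by the test of that difference, or 6.76% of those tested beside 0.841% of all clusters. For 3 of them the effect was higher at 3 h (background 0.559%) and for 2 lower (0.282%). WRKY15 gained 0.82 ± 0.12 on the log2 scale (edgeR adjusted p 7.89e-05), WRKY7 gained 0.60 ± 0.12 (0.00757) and WRKY19 Cluster-9242.61928 gained 0.49 ± 0.11 (0.0096). For WRKY7 and this WRKY19 match the gain took a fall at 1 h to a difference at 3 h that was above 0 but not called. WRKY53 Cluster-9242.57591 and WRKY41 Cluster-9242.57592 had changes of -1.85 ± 0.30 (0.000186) and -1.53 ± 0.34 (0.0137). No WRKY domain is listed for 3 of these 5, the WRKY19, WRKY53 and WRKY41 matches. The gain of the WRKY19 match was not called without replicate 3 of the unbent stems at 3 h or without the 3 libraries rich in rRNA. Its values were 0.38 to 0.56 over the alternatives. That of WRKY7 was lost with log2(FPKM + 0.1). The change of WRKY41 was lost under 8 of 23 alternatives, with values of -1.83 to -1.05 over all of them. Limma-voom was 1 of the 8. So were the fits without unbent replicate 3 at 1 h, bent replicate 3 at 3 h and unbent replicate 2 at 3 h. Over all 4 times the effect differed for 8 clusters, 10.8% beside 2.11%, a count that fell to 5, 4 and 5 without replicate 1 of the bent stems at 1 h, replicate 1 of the bent stems at 3 h or replicate 3 of the unbent stems at 3 h.

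No WRKY cluster was called at 24 or 72 h by edgeR, DESeq2 or limma-voom. At an unadjusted p under 0.05 edgeR gave 5 and 2 of the 74, beside 6.18% and 5.45% of all clusters at that threshold. At the adjusted threshold 0.0246% and 0% of all clusters were called. The median log2 difference of the WRKY clusters was -0.07 at 24 h and -0.03 at 72 h, and that of all clusters -0.01 and 0.00. The 14 clusters that had changed earlier lay between -0.34 (WRKY22 Cluster-9242.45702) and 0.26 (WRKY53 Cluster-9242.57593) at 24 h, and between -0.24 (WRKY41 Cluster-9242.57592) and 0.26 (WRKY40 Cluster-9242.55236) at 72 h. The smallest unadjusted p at 24 h was that of WRKY23 (Cluster-9242.2197), at -0.52 ± 0.20, and that at 72 h belonged to WRKY45 (Cluster-26346.0), a scarce transcript, at -1.81 ± 0.66.

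In unbent stems, the level of most WRKY clusters differed between the harvests. An F test over the 5 harvests called 45 of 74 WRKY clusters, or 60.8% beside 28.8% of all clusters. Of the 61 WRKY clusters with a mean of at least 1 CPM 43 were called, beside 42.4% of all clusters with such a mean. The highest group mean fell at 1 h for 23 of the 45, at 3 h for 10, before bending for 7, at 72 h for 3 and at 24 h for 2. The ratio of the highest to the lowest group mean had a median of 2.30, and 26 of the 45 reached at least 2. Peak times and ratios were not counted over all clusters, so neither is shown to be particular to WRKY clusters. Of the 14 clusters called for bending, 13 were among the 45, the other being WRKY44. The hour of day, the time in the chamber and the handling of unbent plants cannot be told apart in this design.

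Against the stems before bending, whose 3 libraries are shared by all 4 comparisons, 17 WRKY clusters differed at 1 h, 14 higher and 3 lower, beside 10.3% of all clusters (6.46% higher, 3.85% lower). At 3 h 26 differed, 12 higher and 14 lower (14.1%; 8.24% and 5.88%), at 24 h 16, 3 higher and 13 lower (8.4%; 4.66% and 3.75%), and at 72 h 17, 3 higher and 14 lower (10.3%; 5.58% and 4.76%). Replicate 3 of the shared group held the most counts that match thrips among the 3. Its summed WRKY level was 706 FPKM, against 534 and 554 in the other libraries. Without it 16, 7 and 10 clusters were called at 3, 24 and 72 h. The count at 3 h was also 17 without replicate 1 of the unbent stems at 3 h, and that at 24 h was 8 without replicate 2 of the unbent stems at 24 h. The part of insects in these values was not tested.

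WRKY40 had the widest course. Cluster-9242.48947 was at 1.67, 2.52 and 7.3 CPM before bending, 78, 96.3 and 109.7 CPM at 1 h and 4.14, 1.58 and 1.86 CPM at 3 h in unbent stems. It stayed low afterwards, at 1.11, 1.09 and 1.41 CPM and 0.971, 1.38 and 0.75 CPM, so that the 1 h libraries lie apart from all others and the highest group mean is 91.6 times the lowest. The log2 fold change at 1 h was 4.57 ± 0.41 (edgeR adjusted p 1.1e-07). Cluster-9242.55236 went from 13.7, 16.2 and 31.3 CPM to 139, 136 and 136 CPM at 1 h, a change of 2.73 ± 0.26 (3.37e-07), and its group means ranged 12.4-fold. In both, replicate 3 was the highest library before bending.

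WRKY15 rose from 32.7 ± 3.96 to 73.7 ± 0.567 CPM (mean ± SD, n = 3) in unbent stems at 1 h and had the smallest adjusted p over time of the family (3.46e-17, edgeR). It was back at 31.3 ± 0.57 CPM at 24 h. Its change in unbent stems at 1 h was 1.17 ± 0.091 on the log2 scale (2.13e-14). The WRKY19 match Cluster-9242.51624 followed it at 1 h, from 94.8, 87.1 and 94.7 CPM to 143, 139.7 and 148 CPM, while Cluster-9242.54708 fell from 97.9, 76.5 and 94.4 CPM to 53, 51.2 and 50.9 CPM. Their changes of 0.64 ± 0.083 and -0.79 ± 0.091 both passed (1.09e-07 and 5.3e-09), in opposite directions and with no overlap. The third, Cluster-9242.61928, peaked at 3 h with 77.5, 69.3 and 65.3 CPM against 52.8, 49.6 and 49.7 CPM before bending, a change of 0.48 ± 0.075 (3.29e-06).

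The WRKY22 pair rose at 1 h in unbent stems, and 1 of them then fell below its first level. Cluster-9242.45702 went from 8.44, 7.24 and 7.83 CPM to 15.6, 16.4 and 16.4 CPM at 1 h and 4.82, 4.74 and 4.5 CPM at 3 h. These are log2 changes of 1.04 ± 0.17 and -0.74 ± 0.18 (edgeR adjusted p 8.13e-06 and 0.00309), and none of the 3 groups overlap. Cluster-9242.45703 changed by 1.08 ± 0.21 at 1 h (0.000138), and its difference at 3 h of -0.44 ± 0.22 was not called. The rice WRKY51 match, whose namesake works in gibberellin and abscisic acid signalling of the grain, had 31.8, 34.3 and 43.2 CPM before bending and 23.5, 21.7 and 19 CPM at 3 h, a change of -0.77 ± 0.11 (1.63e-06). WRKY21 fell from 26.7, 27.5 and 24.6 CPM to 16.5, 22.2 and 18.3 CPM at 1 h, a change of -0.47 ± 0.12 (0.00388), and held 32.4, 31.5 and 30.2 CPM at 24 h. All 10 clusters with the smallest p over time, those of this and the preceding paragraphs, kept their call under each of 26 alternatives. They were picked for the smallest p in this same test, so that outcome adds no support.

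**Figure D5:**
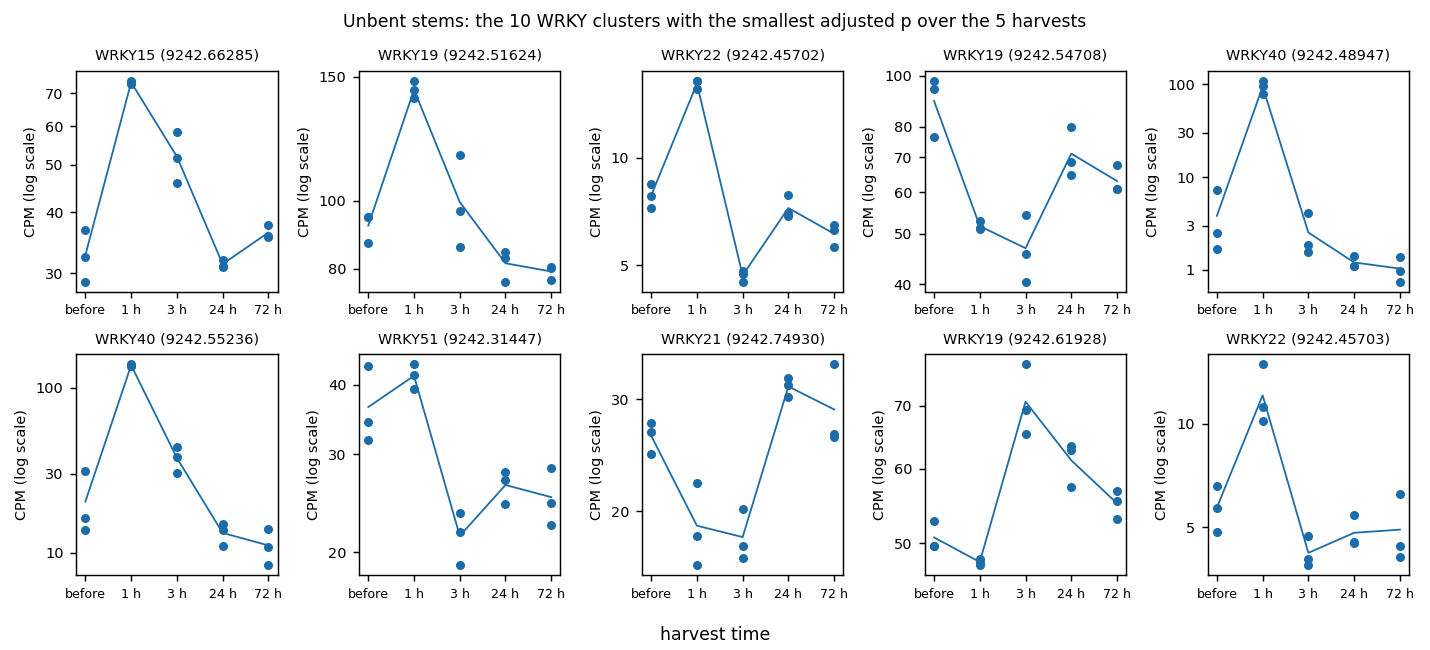
Level in CPM (log axis) in each library of unbent stems at the 5 harvests for the 10 WRKY clusters with the smallest adjusted p over time, with lines through group means. WRKY40 Cluster-9242.48947 goes from 1.67 to 7.30 CPM before bending to 78.0 to 110 CPM at 1 h, while the WRKY19 matches peak before bending, at 1 h or at 3 h.

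Across all 27 libraries, the members whose log2 CPM was most like that of WRKY15 were the WRKY19 match Cluster-9242.51624 (Pearson r 0.937), WRKY40 Cluster-9242.55236 (0.906) and WRKY48 Cluster-9242.9422 (0.833). These libraries share the harvest times, so the values describe a common course and are not tested. WRKY48, a stress-induced factor in Arabidopsis, held 47, 25 and 30 CPM in bent and 14.5, 13.5 and 22.1 CPM in unbent stems at 1 h, which do not overlap, but its log2 difference of 1.02 ± 0.36 was not called (0.227). Summed over the 77 clusters, the level was 598 ± 93.9 FPKM before bending, 820 ± 63.6 with and 752 ± 28.5 without bending at 1 h, and 618 ± 47.9 and 549.8 ± 23.1 at 3 h. Bent and unbent sums overlapped at 1 h, at 777 to 893 and 725 to 782 FPKM, and did not at 3 h, at 589 to 673 and 531 to 575. The gap at 3 h, a mean of 68.3 FPKM, lay in 3 clusters chosen for the size of their difference, WRKY15 (39.1 FPKM), WRKY19 Cluster-9242.51624 (19.8) and WRKY40 Cluster-9242.55236 (17.2). The other 74 summed to 432 to 486 FPKM after bending and 449.5 to 472 FPKM without, which overlap, with a mean difference of -7.74 FPKM. At 24 and 72 h all 4 groups lay between 469 and 543 FPKM.

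By family group, bending calls at any time came to 4 of 18 in group I, 1 of 3 in IIa, 3 of 11 in IId, 3 of 8 in IIe and 3 of 7 in III, and the other groups had none by edgeR at an adjusted p under 0.05. Groups follow the number of the match only. The called WRKY19 clusters of group I, and Cluster-9242.57591 and Cluster-9242.57592 of group III, have no WRKY domain listed. The 3 called clusters of group III have consecutive identifiers and may not be separate genes. Of all clusters tested, 6.4% were called at any of the 4 times. In IIb and IIc, which hold 5 and 19 tested clusters, 1 and 8 had an unadjusted p under 0.05 at 1 or 3 h, beside 22.6% of all clusters. No difference between groups was tested. The 60 tested clusters with no bending call ran from -0.62 to 1.32 on the log2 scale at 1 h and from -1.72 to 1.48 at 3 h, and 32 of them were called over time in unbent stems. The remaining 28 were called in neither and were mostly scarce, with a median of 1.11 FPKM over a range of 0.243 to 25.3, the upper end being WRKY32.

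Genes that are known to act with WRKY factors were counted in the same fit, from lists searched in the annotation. Of 60 tested clusters of the MAP kinase cascade, which phosphorylates WRKY factors in Arabidopsis, 5 rose and 2 fell in bent stems at 1 h, and 7 rose and none fell at 3 h. That is 11.7% of the list at each time, beside 1.93% of all clusters at 1 h and 5.08% at 3 h. Of all clusters with a mean of at least 1 CPM, 3.01% and 7.85% were called at these times. MAPKKK17, a kinase at the top of such a cascade, held 37.1, 18.8 and 13.4 CPM in bent and 5.96, 6.08 and 7.46 CPM in unbent stems at 1 h in Cluster-9242.33770. That is a log2 fold change of 1.82 ± 0.27 (edgeR adjusted p 9.33e-05), with replicate 1 again the highest of its group. MPK3, an immune kinase, had 81.5, 68.3 and 59.4 CPM against 48.8, 49.4 and 51.2 CPM at 1 h, a rise of 0.49 ± 0.11 (0.00502). MKK9, which activates MPK3 in Arabidopsis, had 168, 165 and 161 CPM against 98.7, 86.3 and 77.2 CPM at 3 h, a rise of 0.91 ± 0.17 (0.00273).

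Of 10 tested VQ proteins, 1 rose and 2 fell at 1 h, and 1 fell at 3 h. VQ22 rose by 0.49 ± 0.12 and VQ4 and VQ9 had log2 fold changes of -0.42 ± 0.11 and -0.37 ± 0.10 at 1 h (edgeR adjusted p 0.0201, 0.0261 and 0.0355). Of 24 clusters of salicylic acid signalling, 1, TGA7, fell at 1 h, and 2 rose and 3 fell at 3 h. The 3 that fell were the TGA factors TGA1, TGA4 and TGA7, which bind promoters of salicylic acid targets, at -1.25 ± 0.29, -0.85 ± 0.18 and -0.55 ± 0.13. Of 21 jasmonate signalling clusters, 2 fell at 1 h and 3 rose at 3 h, and MYC2 Cluster-9242.60773, the master regulator of jasmonate responses, was among both, at -0.42 ± 0.089 and then 0.40 ± 0.087. The list of pathogenesis-related proteins and chitinases, frequent targets of WRKY factors, also holds thaumatin-like proteins and glucan endo-1,3-beta-glucosidases. It gave 2 higher of 98 at 1 h, both such glucosidases, and 8 higher and 3 lower at 3 h. Of 48 clusters whose description starts with calmodulin, 1 rose at 1 h, the calmodulin-like CML5, and 4 at 3 h. The latter were the calmodulin CCM1 and the calmodulin-binding CRCK3, CBP60C and CBP60E. CBP60C is also in the salicylic acid list. The share called at 1 h was 30.0% for VQ proteins, 4.17% for salicylic acid, 9.52% for jasmonate, 2.04% for pathogenesis-related proteins and 2.08% for calmodulin, the last 2 near the 1.93% of all clusters. At 3 h, in the same order, it was 10.0%, 20.8%, 14.3%, 11.2% and 8.33%, beside 5.08%, and the VQ share is 1 cluster of 10. Among all clusters with a mean of at least 1 CPM, 3.01% were called at 1 h and 7.85% at 3 h. The lists were not cut at that mean, and the calmodulin share at 3 h is near the latter value. The median log2 fold changes of these 6 lists lay between 0.00 and 0.17 at 1 h and between -0.20 and 0.15 at 3 h.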

How the data were processed

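Whole stems were sequenced as poly(A) RNA in paired reads of 150 bases, per the labels' protocols. No genome was used, and values refer to assembled transcript clusters. The deposited expected counts come from RSEM 1.2.28, per the submitters' processing notes, and 8.05% of them were not whole and were rounded. The deposited FPKM values and annotations were used for names, levels and alternatives. The aligner and assembler are not given in the sources used here. Totals were 14.4 M to 23.1 M per library, and no 2 libraries of a group were duplicates (chi-square per degree of freedom at least 5.71).

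Counts were fitted with edgeR 4.0.16 in R 4.3.3 (trimmed mean of M-values scaling, filterByExpr on 9 groups, robust quasi-likelihood, 1 coefficient per group, 27 libraries; common biological coefficient of variation 0.158). Adjusted p-values are Benjamini-Hochberg values over all 52918 clusters within a comparison, called under 0.05. CPM values are scaled likewise. Libraries are labelled as separate samples, so p-values measure the spread between them. In simulated data at 3 h on 52918 clusters, 60% of 2-fold rises, 66% of falls to 0.5, 82% of 3-fold rises and 82% of falls to 0.333 were recovered. The changed clusters, 50 per fold, were drawn from those with a mean of at least 1 CPM, so the rates do not cover scarcer clusters. The data gave 2689 calls at 3 h. With far fewer changed clusters an adjusted p under 0.05 asks for a smaller p, so the rates need not hold for the data.

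The members and lists were chosen with earlier results of these data known. Named were all members called for bending or its change from 1 to 3 h, the 10 with the smallest p over unbent harvests, the 6 of highest mean FPKM, those around the total of 100, and up to 4 called clusters per list, of which a part is given. Clusters outside this rule are said to be so or stand as examples chosen after their values were seen. Alternatives were DESeq2 1.42.0 and its size factors, limma-voom 3.58.1, no or a stricter filter (1 CPM in 3 libraries, total of 100), a minimum 2-fold change, the replicate number as a block, only the groups compared, log2(FPKM + 0.1) and log2(FPKM + 1) in limma for named members, and each library left out. Those without 3 libraries rich in rRNA, without 2 rich in thrips matches, and over clusters with a listed WRKY domain only were chosen after seeing the data. The alternatives counted for a single cluster leave out the minimum 2-fold change and the listed-domain set. Python 3.11.15, pandas 2.3.3, NumPy 2.4.6 and matplotlib 3.10.9 were also used.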

Additional observations from a re-analysis of the deposited data

Results flagged for a closer look

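For 8 WRKY clusters the effect of bending differed between the 4 harvests, by edgeR's F test on the difference itself. The adjusted p was 5.88e-09 for WRKY15, 0.000505 for WRKY53 Cluster-9242.57591, 0.00196 for WRKY19 Cluster-9242.51624 and 0.0116 for WRKY7 Cluster-9242.33165. It was 0.0159 for WRKY21 Cluster-9242.74930, 0.0159 for WRKY22 Cluster-9242.45702, 0.0292 for WRKY19 Cluster-9242.61928 and 0.0437 for WRKY41 Cluster-9242.57592. WRKY15, WRKY19 Cluster-9242.51624 and WRKY22 had their largest rise at 1 or 3 h, WRKY21, WRKY53 and WRKY41 fell at 3 h, and WRKY7 and WRKY19 Cluster-9242.61928 fell at 1 h. WRKY15 and WRKY53 Cluster-9242.57591 kept this call under all 35 alternatives. The calls of WRKY41 and of WRKY19 Cluster-9242.61928 were lost under 24 and 15 of 35, with an adjusted p of up to 0.265 and 0.291.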

How the results depend on the processing

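Of 38 results on named WRKY clusters, none reversed and 19 kept their call under every alternative fit. The minimum 2-fold change is not among these fits. The 19 include all 10 results over time in unbent stems. Those clusters were picked for the smallest p in that same test, so losing the call was unlikely from the start. Of the bent against unbent calls, only that of WRKY20 was kept throughout at 1 h. Those kept at 3 h were WRKY15, WRKY19 Cluster-9242.51624, WRKY21 and WRKY53 Cluster-9242.57591. Some of the 19 lie below a 2-fold change, such as WRKY20 Cluster-9242.39793 at 1 h (-0.67 on the log2 scale). With a minimum 2-fold change the calls fell to 1 at 1 h, 4 at 3 h and 2 for the change between these effects, and in unbent stems to 9, 6, 8 and 10 at 1, 3, 24 and 72 h. Without 3 libraries rich in rRNA the change between 1 and 3 h gave 3 calls. Without 2 libraries rich in thrips matches unbent stems gave 15 calls at 3 h, 7 at 24 h and 9 at 72 h. Among clusters with a listed WRKY domain only, 2 were called for the change from 1 to 3 h and 4 over the 4 times. With single libraries left out, calls ranged from 1 to 6 at 1 h, 5 to 11 at 3 h, 0 to 0 at 24 and 72 h, 4 to 7 for the change, 4 to 8 over the 4 times, and in unbent stems 13 to 17, 16 to 21, 7 to 17 and 10 to 17 at 1, 3, 24 and 72 h and 41 to 47 over time. The cause of these shifts was not tested beyond the smaller number of samples or clusters. Without a filter on low counts 5 were called at 1 h, 3 of them shared with the 6.

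The replicate numbers did not pair the samples: same-numbered libraries had correlations of deviations between -0.030 and 0.058. With the replicate number as a block the calls were 6, 9, 0 and 0 at 1, 3, 24 and 72 h, 5 and 8 for the change and over the 4 times, and 16, 25, 16, 16 and 45 in unbent stems. The 18 clusters under 1 FPKM rest on few reads, and how level affects the calls was not tested.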

Other observations

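Stem-related WRKY factors were among those that changed in unbent stems, and are given here after their values were seen. WRKY12 and WRKY13, which in Arabidopsis act on secondary walls and the growth of the stem, had their highest unbent group mean at 72 h in 3 of the 4 clusters that match them. WRKY13 (Cluster-9242.37680) held 16.7, 20.4 and 21 CPM before bending and 40.8, 27 and 27.3 CPM in unbent stems at 72 h, with an adjusted p over time of 0.00072 (edgeR). In bent stems at 72 h it held 30.5, 32.8 and 30.2 CPM, which overlaps the unbent libraries. WRKY12 Cluster-9242.46867 went from 13.4, 14.9 and 14.4 CPM to 24.7, 21.5 and 20.1 CPM (0.011), with no overlap, while the WRKY12 match Cluster-9242.48488 was highest at 1 h. Summed xylem markers at 72 h lay at 1640 to 2675 CPM in unbent and 1882 to 2340 CPM in bent stems. Before bending they lay at 1393 to 1620 CPM. Unbent stems held 1308 to 2132 CPM at 1 h and 1353 to 2001 CPM at 24 h, which overlap 72 h, and 1433 to 1628 CPM at 3 h. As a share of the counts, replicate 3 before bending (0.168%) lay above replicates 2 and 3 of the unbent stems at 72 h (0.164% and 0.166%). Replicate 1 of the unbent stems at 72 h, the highest in WRKY13, held the highest xylem share, 0.262% of the counts. The part of xylem in these values was not tested.

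WRKY70, a balance point between salicylic acid and jasmonate responses in Arabidopsis, was highest before bending, at 48.8, 53.9 and 85.1 CPM, and held 25.6, 30.2 and 26 CPM in unbent stems at 1 h (0.00249 over time). The rice WRKY24 match was also highest in replicate 3 before bending, with 5.63, 7.11 and 16.9 CPM, against 1.92, 0.428 and 1.29 CPM at 24 h. WRKY29, which works with WRKY22 in Arabidopsis, was scarce and changed over time in unbent stems (edgeR adjusted p 0.000711). It held 0.268, 0.582 and 1.37 CPM before bending, 0.969, 1.1 and 1.69 CPM at 1 h and 0.101, 0 and 0.184 CPM at 24 h, when it was called lower than before bending (0.0112). In bent stems at 1 h it held 3.4, 2.76 and 1.59 CPM, which overlaps the unbent libraries and was not called (0.531).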
